A study of Mus musculus with 52 samples.

Results

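The cells described here are 33 of 52 single bone marrow cells that had a high level of Klf1, an erythroid transcription factor, and no more than a trace of Cd34, a surface gene of stem and progenitor cells. They were selected on these 2 measured levels and ranked by their level of Gata2. The 11 cells with the most Gata2 (Gata2-high cells) were set against the 11 with the least (Gata2-low cells), with 11 middle cells between them. Gata2 is known to give way to Gata1 as red cell precursors mature, but the stage of these cells was not measured on its own. Both groups came from the same labelled material: bone marrow of Cd4-cre;R26Tdtomato mice on C57BL/6, 6 to 8 weeks old, whose cells are labelled primed HSCs (haematopoietic stem cells). In such mice the Cre enzyme is made where Cd4 is active and removes a stop before tdTomato, which then marks that cell and its descendants. Mature red cells had been lysed in the flushed marrow with ammonium chloride. The labels name no animal, plate, sort gate or control, so the 52 libraries form 1 sample without replicates. The Gata2 groups are not groups of the study, cells are not replicates, and no test was made: values are described by their size and their spread over cells, and all comparisons are within that 1 sample.

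Red cells are made in marrow from progenitors that pass from a burst-forming to a colony-forming stage, come to depend on erythropoietin, and then fill with haemoglobin while they lose their organelles. GATA2 acts in stem cells, early progenitors, mast cells and megakaryocyte precursors, whereas GATA1 takes over its binding sites in erythroid cells and helps to silence the Gata2 gene, an exchange known as the GATA switch. KLF1 acts with GATA1 on genes for haem synthesis, the membrane skeleton and globin.

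Each library was made by Smart-seq2, a plate method that reads full-length cDNA of 1 cell and carries no molecular identifiers. Levels are CPM, a gene's estimated reads per 1000000 reads of its cell, and are not corrected for transcript length, so a gene is compared between cells and not with another gene. A cell had to have 50000 reads or more, 1000 or more genes detected and no more than 20% of its reads from mitochondrial genes, which kept 49 cells, and of these the members had 200 CPM or more of Klf1 and under 10 CPM of Cd34. No cell lay close to either limit on the inside. The member with the least Klf1 had 402 CPM, against 197 CPM in the nearest cell outside, and the member with the most Cd34 had 0.988 CPM, against 91.0 CPM in the nearest cell outside. The last Gata2-high cell had 262 CPM of Gata2 and the first middle cell 251 CPM, so that boundary cuts through near-equal cells. At the other boundary the last middle cell had 100.4 CPM and the first Gata2-low cell 80.2 CPM. Levels of a gene are given below as its lowest, median and highest CPM over the 11 cells of a group.

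The values that chose the groups are a description only. Gata2 (chromosome 6, 88193891 to 88207032, plus strand, GRCm38) was at 262, 482 and 2221 CPM in Gata2-high cells, at 100.4, 214 and 251 CPM in middle cells and at 0, 3.73 and 80.2 CPM in Gata2-low cells. Gata1 was at 105, 359 and 1007 CPM in Gata2-high cells, at 198, 688 and 839 CPM in middle cells and at 257, 543 and 976 CPM in Gata2-low cells. Its range in Gata2-high cells thus covered the whole range of the Gata2-low cells. Klf1 was at 402, 850.5 and 1598 CPM in Gata2-high cells, at 519.7, 821 and 1648 CPM in middle cells and at 507, 851 and 1560.3 CPM in Gata2-low cells.

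**Figure D1:**
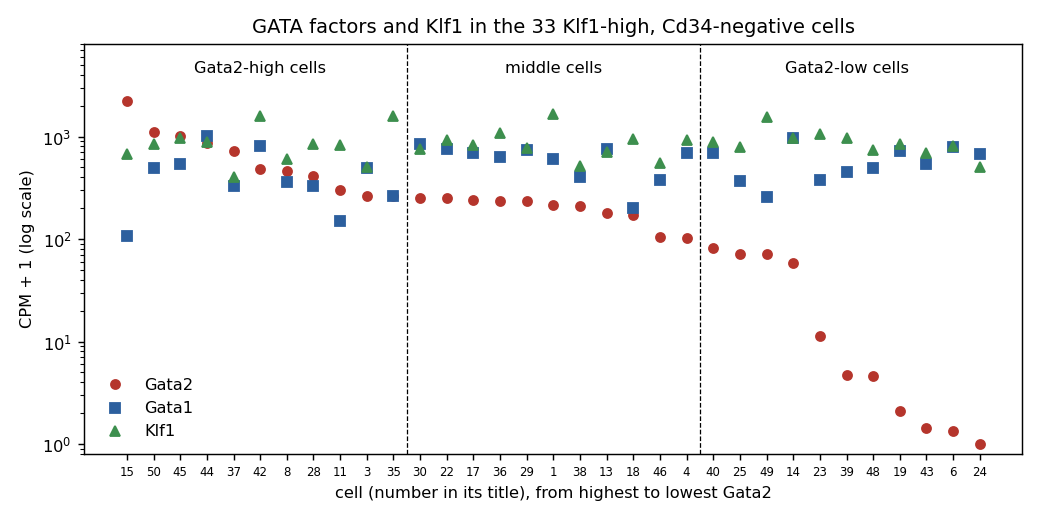
Levels of Gata2, Gata1 and Klf1 (CPM + 1, log scale) in each of the 33 cells, ordered along the x axis from the highest to the lowest Gata2, with dashed lines between Gata2-high, middle and Gata2-low cells. Gata2 runs down from 2221 to 0 CPM with a gap within the Gata2-low cells between 58.0 and 10.4 CPM, while Klf1 stays between 402 and 1648 CPM.

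Read depth was alike at the median and wider in Gata2-high cells. They held 113234, 3154120 and 12446477 reads (lowest, median and highest), against 948508, 2887968 and 4508274 reads in Gata2-low cells. Genes with a read numbered 5697, 6930 and 8505 in Gata2-high cells and 6070, 7521 and 8434 in Gata2-low cells. After every cell was thinned to the 113234 reads of the shallowest member, the median was 5556 genes in Gata2-high cells and 6107 genes in Gata2-low cells, so the gap in genes per cell was still there at equal depth. The mitochondrial share had a median of 3.27% in Gata2-high cells and 3.67% in Gata2-low cells. Over the 33 cells Spearman's rho of Gata2 was 0.01 with total reads, -0.27 with genes with a read and -0.33 with the mitochondrial share, given as a description of cells that share 1 sample.

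The erythroid label was checked against markers other than those of the rule. Car1 and Car2, carbonic anhydrases of the erythroid lineage, were at 10 CPM or more in all 11 cells of each group. Epor, the erythropoietin receptor, reached 10 CPM in 9 of 11 Gata2-high cells and 11 of 11 Gata2-low cells. Tfrc, the transferrin receptor that brings in iron, did so in 7 of 11 Gata2-high cells and 11 of 11 Gata2-low cells. Genes of haemoglobin filling were near 0 in both groups. Alas2, the erythroid enzyme that starts haem synthesis, had 0 reads in Gata2-high cells and 2 reads in Gata2-low cells. Hba-a1, an alpha globin gene, peaked at 20.8 CPM in Gata2-high cells and at 23 CPM in Gata2-low cells, and its split from the near-identical Hba-a2 is uncertain. Hbb-bs, the adult beta globin gene, was listed at 0 in every cell of both groups. Such a 0 is only a listed value, since Rps12, a ribosomal protein gene, was also listed at 0 throughout both groups.

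One Gata2-high cell, number 15, stood apart. Its Gata2 was the highest, at 2221 CPM against 1098 CPM in the next member. It had 105 CPM of Gata1, 377 CPM of Car1 and 0 CPM of Tfrc. It also had the highest values among the 33 cells of Itga2b, the platelet integrin CD41 (731 CPM, against 376 CPM in the next member), of Gp9, a platelet glycoprotein (212 CPM, against 88.3 CPM), and of Meis1, a stem cell homeobox factor (408 CPM, against 386 CPM). Some other platelet genes were higher in another member than in cell 15. They included Itgb3 (175 against 146 CPM), Gp1ba (175 against 34.1 CPM) and Pf4 (29.1 against 7.96 CPM). A second Gata2-high cell, number 11, the deepest library, held B lineage transcripts beside its erythroid ones. It had 385 CPM of Ighm, the immunoglobulin heavy chain, and 171 CPM of Igkc, the kappa light chain, against 10.9 and 0.317 CPM at most in the other Gata2-high cells and 1.59 and 6.34 CPM at most in Gata2-low cells. It also had 831 CPM of Klf1 and 9797 CPM of Car1. Several results that rest on either cell are given below with and without it.

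A gene was compared where its mean over both groups was at least 10 CPM, and called higher or lower where the ratio of mean CPM and the ratio of medians (1 CPM added to each) were both at least 2 in the same direction. Of 8248 genes compared, 559 (6.78%) were called higher in Gata2-high cells and 586 (7.1%) were called lower. Together these were 13.9% of the genes, the share to hold beside every list below. Differences are given as the log2 ratio of mean CPM in Gata2-high over Gata2-low cells, with a gene at 0 in 1 group set to a floor of 3 reads over that group. The median of all genes was 0.03. Many calls rested on few cells. With each of the cells left out in turn, 308 of the 559 higher genes (55.1%) and 330 of the 586 lower genes (56.3%) were called in every run. Without cell 15, 478 of the higher genes (85.5%) and 501 of the lower genes (85.5%) were called again. Without cell 11, 512 (91.6%) and 528 (90.1%) were.

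**Figure D2:**
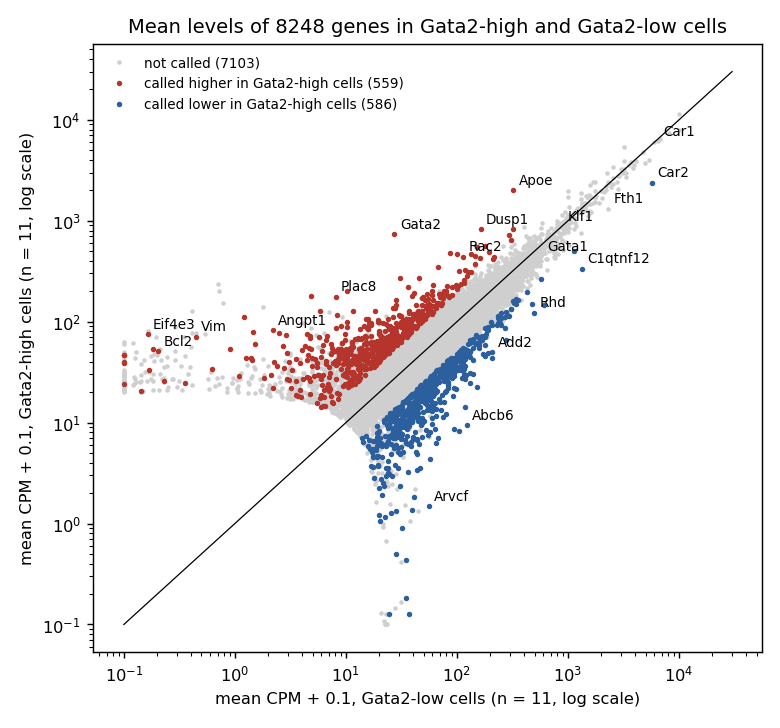
Mean CPM + 0.1 of the 8248 genes in Gata2-high cells (y axis) against Gata2-low cells (x axis), both on log scales, with 11 cells in each group, genes called higher in red, genes called lower in blue and the line of equal means in black. The 559 higher and 586 lower genes lie on both sides over the whole range of levels, and points at the left or lower edge are genes listed at or near 0 in 1 group.

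Among 4306 genes whose mean over the 33 cells reached 50 CPM, the 5 with the highest Spearman's rho with Gata2 were Ifitm2 (0.81), Apoe (0.77), Gmfg (0.74), Rac2 (0.73) and Arhgdib (0.70). All 5 were called higher in Gata2-high cells. They were picked by rho over the same cells, so this direction and the shares of pairs below were largely fixed in advance. The median rho over all 4306 genes was -0.05, and 14 genes were at 0.6 or above. These values describe cells that share 1 sample, and without cell 15 the lowest of the 5 was 0.68.

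Apoe, the apolipoprotein E gene (chromosome 7, 19696109 to 19699188, minus strand, GRCm38), was at 759, 2067 and 3855 CPM in Gata2-high cells, at 221, 701 and 3397 CPM in middle cells and at 0.346, 175 and 1481 CPM in Gata2-low cells. Its mean was 2002 ± 976 CPM in Gata2-high cells and 321 ± 450.3 CPM in Gata2-low cells (SD over 11 cells each), a log2 ratio of 2.64. The Gata2-high cell was the higher one in 95.04% of all pairs of 1 Gata2-high and 1 Gata2-low cell. Rac2, the small GTPase of blood cells that drives migration, was at 229.7, 365 and 1101 CPM in Gata2-high cells and at 0.222, 91.0 and 288 CPM in Gata2-low cells, and was higher in 97.5% of pairs. Arhgdib, an inhibitor that holds small GTPases such as Rac in the cytosol, was at 177, 369.6 and 969 CPM in Gata2-high cells and at 0.793, 102 and 397 CPM in Gata2-low cells. Gmfg, a blood cell regulator of branched actin, was at 32.3, 66.3 and 251 CPM in Gata2-high cells and at 0, 0 and 116 CPM in Gata2-low cells. It was at 10 CPM or more in every Gata2-high cell but in only 4 of 11 Gata2-low cells. Ifitm2, an interferon-inducible membrane gene whose reads are hard to split from its close relatives, was at 435, 723 and 1141 CPM in Gata2-high cells and at 98.3, 282 and 592 CPM in Gata2-low cells. For each of these 5 genes the groups overlapped at their edges.

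The genes that ran most against Gata2 were C1qtnf12 (-0.77), Coq7 (-0.77), Tomm22 (-0.76), Fth1 (-0.74) and Cct6a (-0.73), and 20 genes were at -0.6 or below. C1qtnf12, a secreted C1q-domain protein (chromosome 4, 155962318 to 155966629, plus strand), was at 58.7, 178 and 862 CPM in Gata2-high cells, at 2.71, 680.0 and 1762 CPM in middle cells and at 736, 1396 and 1959 CPM in Gata2-low cells. Its mean was 333 ± 292 CPM in Gata2-high cells and 1326 ± 357 CPM in Gata2-low cells (SD over 11 cells each), a log2 ratio of -1.99, and the Gata2-high cell was the higher one in 1.65% of pairs. Coq7, an enzyme of ubiquinone synthesis in mitochondria, was at 0, 9.66 and 97.1 CPM in Gata2-high cells and at 43.8, 129 and 149.5 CPM in Gata2-low cells. Tomm22, a receptor of the mitochondrial import pore, was at 35.3, 107 and 174 CPM in Gata2-high cells and at 151, 252 and 469 CPM in Gata2-low cells. These 3 genes were called lower, and their direction too was largely fixed by the choice by rho.

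Fth1, the ferritin heavy chain that stores iron, was at 830.1, 1171 and 1837 CPM in Gata2-high cells and at 1624, 2295 and 2881 CPM in Gata2-low cells. Cct6a, a subunit of the cytosolic chaperonin, was at 124, 253 and 433 CPM in Gata2-high cells and at 334, 547 and 796 CPM in Gata2-low cells. Both had narrow ranges with little overlap, but their log2 ratios of -0.79 and -0.94 did not reach the fold for a call.

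**Figure D3:**
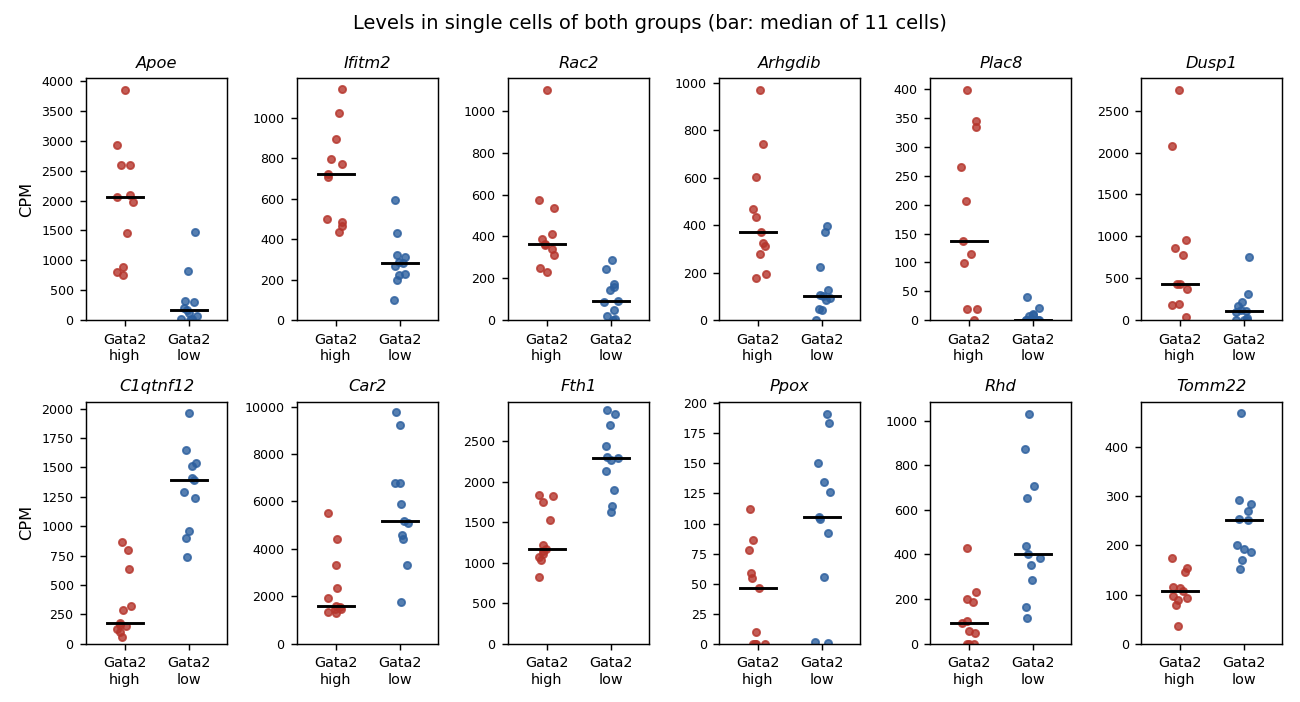
CPM in each of the 11 Gata2-high cells (red, left) and 11 Gata2-low cells (blue, right) for 12 genes, each on its own linear axis from 0, with the median as a black bar. The upper row holds genes with higher values in Gata2-high cells, such as Apoe with medians of 2067 and 175 CPM, and the lower row genes with lower values there, such as C1qtnf12 with medians of 178 and 1396 CPM.

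By size of the ratio, the leading higher genes were mostly well above 0 in some Gata2-high cells and at or near 0 in most Gata2-low cells. The 15 with the largest ratio, out of 354 with a symbol, a mean of at least 50 CPM in Gata2-high cells and a read in at least 6 of the 11, were Eif4e3, Prkch, Bcl2, Vim, Atp2a3, Palm, Spns2, Tmem229b, Angpt1, Pkm, Syk, Zyx, Acap1, Plac8 and Phkb. All 15 stayed called with each of the cells left out in turn. They were picked by the ratio in these same cells, so this was partly fixed in advance. Eif4e3, a cap-binding relative of the translation factor eIF4E, was at 0, 62.3 and 238 CPM in Gata2-high cells and at 10 CPM or more in 8 of them. In Gata2-low cells it had 2 reads in all, or 0.0631 CPM of their pooled reads (95% exact Poisson interval 0.00764 to 0.228, for counting error only). Prkch and Bcl2 had 3 reads each over the Gata2-low cells, so no ratio is given for these genes either.

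Bcl2, which holds back mitochondrial cell death, was at 0, 32.7 and 193 CPM in Gata2-high cells and never above 0.549 CPM in Gata2-low cells. Vim, the intermediate filament vimentin, was at 0, 21.3 and 415 CPM in Gata2-high cells and at 1.90 CPM or less in Gata2-low cells. Angpt1, the ligand of the TIE2 receptor that stem and progenitor cells secrete, was at 0, 21.1 and 374 CPM in Gata2-high cells and at 0, 0 and 19.7 CPM in Gata2-low cells. Plac8, a small cysteine-rich protein of early blood progenitors, was at 0, 137 and 399 CPM in Gata2-high cells and at 0, 0.294 and 39.96 CPM in Gata2-low cells. It reached 10 CPM in 10 of 11 Gata2-high cells (90.9%) and 3 of 11 Gata2-low cells (27.3%), in a gene picked for its ratio between these same cells. Acap1, a regulator of ARF6 in endosome recycling, did so in 9 and Angpt1 in 8 of the Gata2-high cells, against 1 of 11 Gata2-low cells for each. Pkm, the muscle-type pyruvate kinase gene, was at 0, 7.40 and 574 CPM in Gata2-high cells and at 0, 0.456 and 48.4 CPM in Gata2-low cells. Syk, a tyrosine kinase of immune receptors, was at 0, 7.87 and 338 CPM in Gata2-high cells and at 0, 0.294 and 18.1 CPM in Gata2-low cells. Pkm, Syk and Zyx, a focal adhesion protein, each reached 10 CPM in only 5 of 11 Gata2-high cells, so their means came from a minority of the group.

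On the lower side the 15 leading genes, of 298 under the same terms with the Gata2-low cells as the higher group, were Arvcf, Wdr81, Abcb6, Klhl23, Fbxo10, Armc6, Slc26a1, Wdr45b, Fanca, Trappc11, Gpc4, Cldn13, Tubgcp6 and Wdr24, with 1 not named here. All 15 were likewise called with each cell left out, and were likewise picked by the ratio in these same cells. Abcb6, a porphyrin transporter, was at 0, 0 and 48.2 CPM in Gata2-high cells and at 2.42, 84.8 and 377 CPM in Gata2-low cells, a log2 ratio of -3.71. Slc26a1, a sulfate and oxalate exchanger, was at 0, 0 and 51.8 CPM in Gata2-high cells and at 0, 43.3 and 164 CPM in Gata2-low cells, where 10 of 11 cells reached 10 CPM. Cldn13, a claudin found in rodents and not in humans, was at 0, 0.304 and 105 CPM in Gata2-high cells and at 0, 117 and 357 CPM in Gata2-low cells. Fanca, a subunit of the Fanconi anaemia DNA repair complex, was at 0, 0 and 39.8 CPM in Gata2-high cells and at 0, 88.1 and 126 CPM in Gata2-low cells. Wdr45b, a phosphoinositide-binding protein of autophagy, was at 0, 3.34 and 102 CPM in Gata2-high cells and at 0.476, 95.5 and 316 CPM in Gata2-low cells. Arvcf, a catenin of the p120 family, reached 10 CPM in 1 Gata2-high cell and 7 Gata2-low cells. In these 6 genes most Gata2-low cells reached 10 CPM, and the median Gata2-high cell was under 4 CPM.

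Among the transcription factors of erythroid cells few were called beyond Gata2 itself, though some differed without a call. Gfi1b had medians of 224 CPM in Gata2-high and 482 CPM in Gata2-low cells (log2 ratio -0.82), and E2f4 280 and 514 CPM (-0.77). Nfe2 went the other way, with medians of 202 and 130 CPM (0.75). In all, 14 factors had the higher mean in Gata2-high cells and 10 the lower. Of 24 compared, 3 were called higher and 0 lower, and 1 of the 3 was Gata2, which the ranking fixed. Mafk, the small Maf partner of the NF-E2 complex, was at 25.5, 175 and 349 CPM in Gata2-high cells and at 0, 42.7 and 169.7 CPM in Gata2-low cells (log2 ratio 1.85). Runx1, a stem and megakaryocyte factor, was at 0, 36.99 and 377 CPM in Gata2-high cells and at 0, 1.65 and 96.4 CPM in Gata2-low cells (1.17), but the Gata2-high cell was the higher one in only 49.6% of pairs, and it was no longer called without cell 15 (0.29). Myb, a factor of dividing progenitors, was at 248, 576 and 1240.3 CPM in Gata2-high cells and at 227, 459 and 751.5 CPM in Gata2-low cells, and was not called. The list's median log2 ratio was 0.32 (0.19 without cell 15), against 0.03 for all genes.

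Among cytokine receptors and their signalling genes 2 of 17 compared were called, beside 13.9% of all genes. The 2 receptors of erythroid growth differed in opposite directions without a call. Kit, the stem cell factor receptor, was at 168, 486 and 1389 CPM in Gata2-high cells and at 139, 321 and 1312 CPM in Gata2-low cells (log2 ratio 0.40, not called). Epor was at 0, 144 and 259 CPM in Gata2-high cells and at 160.3, 262 and 584 CPM in Gata2-low cells. The log2 ratio of Epor was -1.26 and the Gata2-high cell was the higher one in 6.61% of pairs, but its ratio of medians was under 2, so it was not called. Of 17 genes compared, 2 were called higher and 0 lower, with a median log2 ratio of 0.44 (0.69 without cell 24). Lyn, a kinase downstream of both receptors, was at 5.17, 60.3 and 243 CPM in Gata2-high cells and at 0, 0.529 and 274 CPM in Gata2-low cells. Igf1r, the insulin-like growth factor receptor, was at 0, 11.49 and 179 CPM in Gata2-high cells and at 0, 0.264 and 50.5 CPM in Gata2-low cells. Of 15 surface genes of erythroid progenitors, 2 were called higher and 0 lower, namely Cd9, a tetraspanin (0, 52.7 and 306 CPM in Gata2-high cells and 0.665, 4.28 and 41.1 CPM in Gata2-low cells), and Cd48, a ligand of CD244 (0, 44.3 and 207 CPM in Gata2-high cells and 0, 0 and 92.8 CPM in Gata2-low cells).

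Genes of the maturing red cell were lower in Gata2-high cells where they were called at all. The clearest list was that of the red cell membrane and its channels, with 0 higher and 5 lower of 16 compared and a median log2 ratio of -0.70. Rhd, which carries the Rh antigens of the red cell, was at 0, 93.8 and 428 CPM in Gata2-high cells and at 117, 401 and 1031 CPM in Gata2-low cells (log2 ratio -2.01). Add2, the beta adducin that caps actin in the membrane skeleton, was at 0, 32.3 and 191 CPM in Gata2-high cells and at 14.7, 229 and 399 CPM in Gata2-low cells (-2.07). Rhag, the Rh-associated glycoprotein, was at 0, 113 and 366 CPM in Gata2-high cells and at 3.16, 278 and 482 CPM in Gata2-low cells (-1.27). Sptb, a spectrin chain of the membrane skeleton, had a log2 ratio of -1.20, a call that did not hold with every cell left out. Between 4 and 7 genes of the list were called lower when 1 cell was left out. Aqp1, the water channel, did not follow, with means of 1252 CPM in Gata2-high cells and 1186 CPM in Gata2-low cells.

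The promoter of Rhd, the called membrane gene with the widest gap in mean CPM, is shown beside that of Epor because both windows hold AGATAA, the letters at the core of many GATA factor sites. Each window runs from 250 bases before to 50 bases after the start of transcription and was taken from RefSeq for GRCm38.p6, Rhd from chr4:134864286-134864585 on the plus strand and Epor from chr9:21963527-21963826 on the minus strand. Capitals mark AGATAA or, on the other strand, TTATCT.
Rhd: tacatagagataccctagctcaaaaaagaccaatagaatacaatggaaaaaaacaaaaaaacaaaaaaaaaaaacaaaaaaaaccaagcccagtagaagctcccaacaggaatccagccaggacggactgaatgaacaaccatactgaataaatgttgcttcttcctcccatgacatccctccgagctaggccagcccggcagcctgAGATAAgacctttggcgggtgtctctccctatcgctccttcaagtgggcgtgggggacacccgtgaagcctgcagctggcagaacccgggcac
Epor: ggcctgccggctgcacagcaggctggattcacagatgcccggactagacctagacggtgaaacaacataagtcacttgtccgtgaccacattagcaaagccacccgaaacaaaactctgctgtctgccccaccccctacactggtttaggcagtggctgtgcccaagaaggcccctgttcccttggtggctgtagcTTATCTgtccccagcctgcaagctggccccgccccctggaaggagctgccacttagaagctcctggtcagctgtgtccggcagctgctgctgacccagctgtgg
Of all 27025 genes with a window, 12.7% held these letters on either strand, and of all 32851 windows 11.2% did. Among the membrane and haem genes called lower, 6 of 8 had a window and 1 of the 6 held them. Of the 15 leading higher genes 1 of 11 with a window did, and likewise 1 of 11 among the leading lower genes. A match is a description of the letters and not a site in use.

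Haem synthesis genes were called lower in 3 of 19 and higher in 0, with a median log2 ratio of -0.33, which ran from -0.56 (without cell 15) to -0.11 (without cell 40) with 1 cell left out. Ppox, the protoporphyrinogen oxidase, was at 0, 46.8 and 112 CPM in Gata2-high cells and at 0.456, 105 and 191 CPM in Gata2-low cells (-1.36). Abcb6, given above, was also among the lower genes. Fech, which inserts iron into the ring, had means of 149.95 CPM in Gata2-high cells and 296 CPM in Gata2-low cells (-0.98) and was not called. Alad, which makes porphobilinogen, had means of 497 CPM in Gata2-high cells and 550.2 CPM in Gata2-low cells (-0.15). Without cell 15, Alas1 also passed and 4 genes were called lower.

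Iron handling held 1 higher and 3 lower genes of 17, with a median log2 ratio of -0.23, which ran from -0.42 (without cell 11) to -0.12 (without cell 25) with 1 cell left out. Slc40a1, the iron exporter ferroportin, was at 0, 37.8 and 189 CPM in Gata2-high cells and at 0, 111 and 246 CPM in Gata2-low cells (log2 ratio -1.26). Steap3, the ferrireductase of transferrin endosomes (-1.01), Ireb2, an iron-responsive RNA-binding protein (-1.29), and Ncoa4, the receptor that sends ferritin to lysosomes (1.05), did not hold their calls with every cell left out. Without cell 15, 0 genes were called higher and 2 lower. Tfrc was at 0, 129 and 353 CPM in Gata2-high cells and at 54.3, 211 and 451 CPM in Gata2-low cells (-1.12, not called). The summed level of the whole list was 4570.2, 5764 and 8160 CPM in Gata2-high cells and 5886, 7621 and 10337 CPM in Gata2-low cells, with a rho with Gata2 of -0.70 over the 33 cells, and Fth1 and Ftl1, the ferritin chains, made up much of it.

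The 2 carbonic anhydrases parted. Car2 was at 1298, 1581 and 5524 CPM in Gata2-high cells, at 784, 3956 and 6528 CPM in middle cells and at 1746, 5177 and 9764 CPM in Gata2-low cells. Its log2 ratio was -1.26 and it was called lower. Car1 was at 377, 5962 and 11825 CPM in Gata2-high cells and at 219.7, 8101 and 10769 CPM in Gata2-low cells, with a log2 ratio of -0.08, and each group ran from near the bottom to the top of the range. Of 15 genes of late erythroid differentiation, 0 were called higher and 3 lower, Rhd and Add2 among them.

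**Figure D4:**
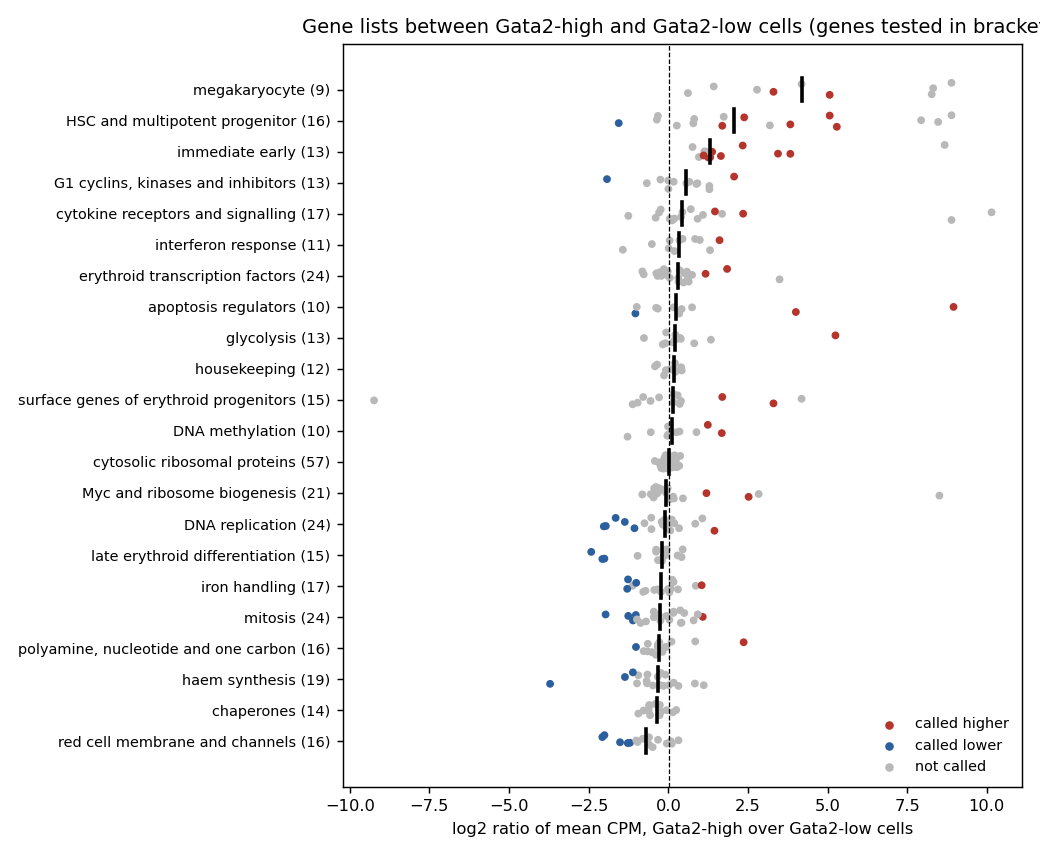
Log2 ratio of mean CPM, Gata2-high over Gata2-low cells, for each compared gene (point) of 22 lists, with the number of genes in brackets, the list median as a black bar and the median of all genes, 0.03, as a dashed line; Gata2 itself is not drawn. Called genes are red or blue, the list medians run from -0.70 for the red cell membrane to 4.18 for megakaryocyte genes, and points beyond 7.5 are genes with at most a few reads in 1 group.

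Genes of stem cells and of megakaryocytes, which share a precursor with the red cell line, mostly had the higher mean in Gata2-high cells, 13 of 16 and 9 of 9 of those compared. Of the 16 compared genes of stem cells and multipotent progenitors, 5 were called higher (Angpt1, Fli1, Egr1, Sox4 and Cd48) and 1 lower (Mllt3), with a median log2 ratio of 2.06 (1.98 without cell 15). Sox4, a progenitor transcription factor, was at 0, 11.05 and 114 CPM in Gata2-high cells and at 0, 0 and 25.3 CPM in Gata2-low cells (2.38). Mllt3, a chromatin reader that stem cells need, went the other way, at 0, 4.71 and 147 CPM in Gata2-high cells and at 18.5, 87.2 and 245 CPM in Gata2-low cells (-1.56). Meis1 was at 10 CPM or more in 4 Gata2-high cells and 0 Gata2-low cells and was not called, since its median was 0.673 CPM in Gata2-high cells.

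Of 9 compared megakaryocyte genes, 2 were called higher, Cd9 and Fli1, and 0 lower. Fli1, an ETS factor of megakaryocytes, was at 0, 2.55 and 254 CPM in Gata2-high cells and at 0, 0 and 9.51 CPM in Gata2-low cells. The median log2 ratio of the 9 was 4.18, but 2.74 over the 7 that still passed without cell 15. Itga2b reached 10 CPM in 2 Gata2-high cells and 1 Gata2-low cell. Summed over the list, the level was 112, 314 and 3098 CPM in Gata2-high cells and 4.99, 74.1 and 154 CPM in Gata2-low cells, and the highest value, that of cell 15, was followed by 869.6 CPM. Of the platelet glycoproteins, Gp5 reached 10 CPM in 9 Gata2-high cells and 6 Gata2-low cells (means of 108 and 40.1 CPM), Gp1ba in 4 and 1 (26.6 and 3.85 CPM) and Gp9 in 3 and 0 (30.2 and 0 CPM), and none of them was called. Itgb3, the partner of the integrin Itga2b, reached it in 2 Gata2-high cells and had 0 reads in Gata2-low cells. Other platelet genes, Gp1bb, Gp6, Treml1, Clec1b and Ppbp, were listed at 0 in both groups.

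Summed markers of neutrophils and monocytes, of T and NK cells and of B cells reached 721, 720.1 and 799.6 CPM in single Gata2-high cells and were at or near 0 in most Gata2-low cells. Mast cells and basophils share Gata2 with these cells. Of their genes, Ms4a2, Mcpt8, Cma1, Tpsb2, Gzmb, Prss34 and Mcpt4 were listed at 0 in both groups. Summed, that list was at 252, 483 and 953 CPM in Gata2-high cells and at 155, 308 and 494 CPM in Gata2-low cells. The rho of this sum with Gata2 was 0.45 over the members. Both compared genes had the higher mean in Gata2-high cells, Srgn (410 and 258 CPM) and Il1rl1 (57.4 and 31.2 CPM). Of these 2 genes 0 were called, or 1 higher, Il1rl1, without cell 15. Of neutrophil and monocyte genes, Elane, Ctsg, Csf1r, Cebpe, Ly6c2, Fcnb, Camp and Ngp were listed at 0. The list's summed level was 0.850, 80.9 and 721 CPM in Gata2-high cells and 0, 0.829 and 82.8 CPM in Gata2-low cells. Its highest sum was that of cell 15, and the next among Gata2-high cells was 492 CPM. Lyz2, a lysozyme of myeloid cells, was 415 CPM in cell 15 and at 10 CPM or more in 4 Gata2-high cells and 2 Gata2-low cells. T and NK cell genes were at 0, 39.5 and 720.1 CPM summed in Gata2-high cells and at 0, 0 and 6.66 CPM in Gata2-low cells. Their defining members Cd3e, Cd3g, Cd4, Trbc2 and Bcl11b were listed at 0 in both groups. The sum came mainly from Nkg7, a cytotoxic granule gene, and Lat, an adaptor also used by platelets. It was highest in cell 15, followed by 221 CPM in the next Gata2-high cell. Of B lineage genes, Pax5 and Rag1 were listed at 0 in both groups, and 0 of 2 compared genes, Cd79b and Ighm, were called. The list's summed level was 0, 3.95 and 799.6 CPM in Gata2-high cells, at 0, 5.21 and 352 CPM in middle cells and at 0.444, 2.29 and 69.3 CPM in Gata2-low cells. The highest sum was that of cell 11, and the next among Gata2-high cells was 207 CPM, in cell 15. Cd79b, a chain of the B cell receptor, reached 10 CPM in 4 Gata2-high cells and 0 Gata2-low cells. Cd79a, its partner chain, did so in 2 Gata2-high cells and 0 Gata2-low cells. Of endothelial and stromal genes only Pecam1 was compared, and it was called higher (log2 ratio 1.22, not with every cell left out), with Cdh5, Kdr, Vcam1, Pdgfra and Pdgfrb listed at 0. Of 3 dendritic cell genes and 1 gene of other organs compared, 0 were called. The part of cells of other types in these differences was not tested.

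Single cell cycle genes were called, while the medians of the replication and mitosis lists changed sign with 1 cell left out. Of 24 replication genes, 1 was called higher and 5 lower, against 6.78% and 7.1% of all genes. The higher gene and 4 of the 5 lower genes kept their calls with every cell left out. The list's median log2 ratio was -0.09, running from -0.23 (without cell 45) to 0.05 (without cell 50) with 1 cell left out. The lower genes were Cdc6, Ccne1, Ccne2, Gins1 and Cdt1. Cdc6, which loads the MCM helicase, was at 0, 12.6 and 288 CPM in Gata2-high cells and at 75.1, 186 and 526.2 CPM in Gata2-low cells (log2 ratio -1.65). Ccne1, cyclin E1, was at 0, 0.284 and 277 CPM in Gata2-high cells and at 0, 161 and 450.5 CPM in Gata2-low cells (-1.96). Ccne2, Gins1 and Cdt1 had log2 ratios of -2.02, -1.37 and -1.06, and Cdt1 was not called without cell 15. Pola1, the catalytic subunit of the primase-polymerase, was called higher (1.45), and without cell 15 Prim1, a primase subunit, was too. Mcm6, a helicase subunit, was not called and had means of 1003 CPM in Gata2-high cells and 793 CPM in Gata2-low cells.

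Of 24 mitosis genes 1 was called higher, Aurkb, the Aurora B kinase (log2 ratio 1.08), and 4 lower, Ccna2, Cdc20, Bub1 and Ttk, with a median of -0.27, which also changed sign (-0.53 without cell 42 to 0.12 without cell 43). Of these 5, only Ttk, a spindle checkpoint kinase, kept its call with every cell left out, and without cell 15 there were 2 higher and 3 lower. Summed over the list, mitosis genes were at 346, 3239 and 6743 CPM in Gata2-high cells and at 659.9, 2976 and 7485 CPM in Gata2-low cells, so both groups held cells with few and cells with many mitotic transcripts. Among 13 cyclins, kinases and inhibitors of G1, Rbl2, the pocket protein p130, was called higher (2.07) and Cdkn2c, the CDK inhibitor p18, lower (-1.93), and without cell 15 Rb1, the retinoblastoma protein, was also called higher. Ccnd2 and Ccnd3, the D cyclins, had log2 ratios of 1.29 and 0.91 and were not called.

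Immediate early genes, which cells switch on within minutes of a stimulus or of handling, had the most calls of any list. Of 13 compared, 8 were called higher and 0 lower, against 6.78% of all genes called higher, with a median log2 ratio of 1.31, which ran from 0.99 (without cell 15) to 2.29 (without cell 14) with 1 cell left out. Dusp1, a phosphatase that turns MAP kinases off, was at 31.9, 436 and 2748 CPM in Gata2-high cells, at 0.173, 586 and 4521 CPM in middle cells and at 0, 106 and 758 CPM in Gata2-low cells (log2 ratio 2.34). Fos, an AP-1 subunit, was at 1.52, 627 and 3180.1 CPM in Gata2-high cells, at 0.173, 723.7 and 4095 CPM in middle cells and at 0.264, 212 and 969 CPM in Gata2-low cells (1.38). Only 3 of 12 compared genes were called higher without cell 15, and with each cell left out the count ran from 3 to 11. Dusp1 and Egr1 were the 2 genes called in every such run. The highest summed level among all 33 cells, 16575 CPM, was in a middle cell, number 36, followed by 14390 CPM in cell 15 and 4622 CPM in the next Gata2-high cell.

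**Figure D5:**
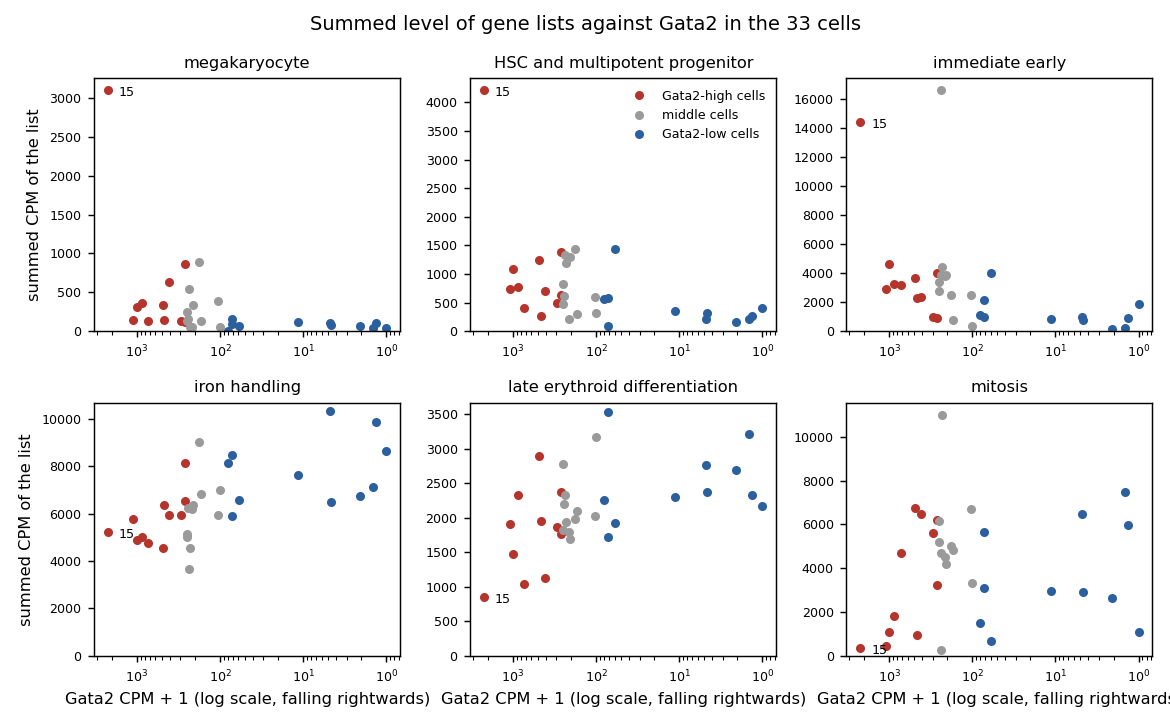
Summed CPM of 6 gene lists (y axes, linear from 0) against Gata2 (CPM + 1, log scale, falling to the right) in the 33 cells, with Gata2-high cells in red, middle cells in grey, Gata2-low cells in blue and cell 15 marked. Megakaryocyte sums peak at 3098 CPM in cell 15 with the next Gata2-high cell at 869.6 CPM, iron handling sums are lower at high Gata2, and mitosis sums run from 346 to 6743 CPM in Gata2-high cells and from 659.9 to 7485 CPM in Gata2-low cells.

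Ribosomal protein, growth and housekeeping genes differed little. Of 57 cytosolic ribosomal protein genes 0 were called in either direction, with a median log2 ratio of 0.01, and of 12 housekeeping genes 0 were called, with a median of 0.17 (0.07 without cell 15). Of 21 Myc and ribosome biogenesis genes, Max and Mxi1, partner and antagonist in the Myc network, were called higher (1.20 and 2.52), and neither call held with every cell left out. Myc itself had means of 580.4 CPM in Gata2-high cells and 515 CPM in Gata2-low cells. Of 14 chaperones 0 were called, with a median of -0.36. Hspd1, the mitochondrial HSP60, was at 177, 643 and 1276 CPM in Gata2-high cells and at 768, 1394 and 1964 CPM in Gata2-low cells, short of the fold for a call (log2 ratio -0.78).

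Each remaining list had at most 2 genes called higher and at most 1 called lower, to be held beside 6.78% and 7.1% of all genes. Of 13 glycolysis genes Pkm alone was called, while Ldha and Gapdh had means of 2152 and 1758 CPM in Gata2-high cells and 2430 and 1580 CPM in Gata2-low cells. Of 10 apoptosis regulators, Bcl2 and Bnip3, a mitophagy receptor (0, 19.02 and 79.9 CPM in Gata2-high cells and 0, 0 and 17.3 CPM in Gata2-low cells), were called higher, and Bid, a death agonist, lower (-1.03). Bid was not called without cell 15 (-0.98). Of 16 genes of polyamine, nucleotide and one-carbon metabolism, Shmt1, a cytosolic serine hydroxymethyltransferase, was called higher (0, 106 and 229.6 CPM in Gata2-high cells and 0, 0.476 and 85.6 CPM in Gata2-low cells) and Mthfd2, a mitochondrial enzyme of the folate cycle, lower (-1.02, not called without cell 15 at -0.88). Of 11 interferon response genes, Irf7 was called higher (1.61), and the list's median of 0.35 ran from -0.31 (without cell 11) to 1.91 (without cell 23) with 1 cell left out. Of 10 DNA methylation genes, Dnmt3a and Tet3, a writer and an eraser, were called higher (1.24 and 1.68), Dnmt3a not with every cell left out.

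The middle cells and the cells with Cd34 were in no ratio above, and show how the called genes behave outside the compared cells. The mean in the middle cells lay between the means of the groups for 71.1% of the genes called higher and 73.4% of those called lower, against 39.6% of all compared genes. Such a share is partly fixed by the choice of genes far apart at the ends. Within the 11 middle cells alone, where Gata2 ranged only from 100.4 to 251 CPM, the median rho of a gene with Gata2 was -0.05 for genes called higher and -0.15 for genes called lower, against -0.09 for all. Within the middle cells, genes called higher thus did not follow Gata2. In the 14 kept cells with 10 CPM or more of Cd34, which lie outside the rule, 37.6% of the genes called higher had a mean at least 2-fold above that of the middle cells, against 18.1% of all genes and 11.1% of the genes called lower. Means at least 2-fold under the middle cells were found there for 31.7% of the genes called lower, against 19.4% of all genes and 12.7% of the genes called higher.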

How the data were processed

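The 52 Smart-seq2 libraries, 1 cell each, were read from a table in which the authors deposited expected counts (estimated counts, 4.23% of them not whole numbers) for 28786 genes. Per the submitters' processing notes, Trim Galore 0.5.0 trimmed the reads and Salmon 0.03.1 estimated counts on GRCm38. Transcript set, summing to genes and strand setting were not given in the sources used here, so splits between near-identical, overlapping or antisense genes are uncertain. These counts, rounded and called reads, were divided by the cell's total to give CPM. Symbols (27728 genes) and coordinates are from GENCODE M21. Kept cells, groups and calls followed the limits in the text. Depth per compared cell ran from 113234 to 12446477 reads. The Poisson interval and the floors cover counting error only, since without molecular identifiers several reads can be copies of 1 molecule. No doublet caller was run on so few wells.

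Named are the 4 genes of the rule, the 15 leading genes a side, each list's called members and up to 4 of its genes with the highest mean, and the 5 genes a side most correlated with Gata2. Also named, for the marker check or chosen after their values were seen, are Epor, Tfrc, Alas2, Alas1, Fech, Hba-a1, Hba-a2, Hbb-bs, Rps12, Meis1, Itga2b, Gp9, Il1rl1, Prim1, Rb1, Igkc, Cd79a, Gp5, Gp1ba, Itgb3, Pf4, Gfi1b, E2f4, Nfe2 and list members at 0. The rule, the members and the gene lists were chosen with earlier results of these data known. Ly76, Fam132b and Ahsp were not analysed here, and some genes that the rule names are not reported here. No test was made, because the labels name 1 group and no animal. Alternatives were other scalings (TMM by edgeR 4.0.16 and median-of-ratios factors), other cut-offs, ranks and folds, thinned reads, and leaving out each cell. The steps were checked on simulated data, in Python 3.11.15 with numpy 2.4.6, pandas 2.3.3 and scipy 1.17.1.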

Additional observations from a re-analysis of the deposited data

Results flagged for a closer look

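Of the 3 libraries that the limits on reads, genes and mitochondrial share left out, 2 held erythroid transcripts. Cell 5 had 186 reads of Klf1. Cell 12 had 14 reads of Klf1 and 11 reads of Gata2. All 3 values are above the 3 reads that a count of 0 allows, and neither cell entered any comparison.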

How the results depend on the processing

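With each cell left out in turn, the genes called between Gata2-high and Gata2-low cells numbered 556 to 689 higher and 574 to 664 lower. Under other cut-offs the counts were 214 higher and 188 lower (mean of at least 50 CPM), 239 and 207 (3-fold), 993 and 1956 (ratio of medians alone), 1234 higher (ratio of means alone) and 348 higher (all 33 cells divided at the median of Gata2). The median log2 ratio of the HSC and multipotent progenitor list was 0.78 at a mean of at least 50 CPM, 3.65 with cells thinned to 1000000 reads and 0.63 by the ratio of medians alone. That of the megakaryocyte list was 2.36 at 50 CPM, 1.35 with the cells divided at the median, 0 over the genes of the medians-alone run, 2.61 with the groups redrawn without cell 15, and 2.74 (without cell 15) to 6.5 (without cell 14) with 1 cell left out. Wdr24 reversed to a log2 ratio of 0.044 with the cells divided at the median. The cause of these shifts was not tested. A Klf1 limit of 100 or 400 CPM changed no cell. Median-of-ratios scaling shifted the median log2 ratio by 0.08 and TMM by -0.01. Under alternatives other than leaving a cell out, 2854 of 2940 values of named genes moved by less than their spread. That spread is the SD of log2 CPM (1 CPM added) over the cells within the groups. It was 0.33 for Fth1 but 3.04 for Runx1, so a gene could move less than its spread and still lose its call. The count therefore does not show that calls held. No paired analysis was possible because the labels give 1 group. Depth limits what a 0 shows: in Gata2-high cells the shallowest library held 113234 reads, against 948508 reads in Gata2-low cells. Without replicate animals, no value here measures variation between mice.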
